A study of Homo sapiens with 12 samples.

Results

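The effect of POLR2A knockdown in the absence of toxic injury was read from the 3 siB DMSO and 3 SCR DMSO samples, 6 of the 12 samples of the series. All 35238 genes of the deposited table entered, and the 13606 with at least 1 CPM (read counts scaled to each sample's total) in at least 3 of the 6 samples were tested. The cells were HK-2, an established and immortalised line from human proximal tubule, the nephron segment that reabsorbs most of the filtrate. SCR cells carried 10 nM of a scrambled Trilencer-27 siRNA and siB cells carried 10 nM of a POLR2A-specific one, and both groups received the DMSO vehicle for 24 hours. The remaining 6 samples, the 3 SCR AAI and 3 siB AAI samples, received 25 µM aristolochic acid I (AAI), a nephrotoxic and DNA-damaging plant compound, and they serve here as a second set in which the same siRNA contrast was measured. The model is 1 cell line with 1 knockdown reagent, and the labels do not say whether replicates came from separate cultures, so p-values measure the spread between these samples, which may be technical. The comparison asks what a lowered POLR2A transcript leaves in place and which gene groups drift.

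The product of POLR2A, RPB1, is the biggest of the 12 polypeptides of RNA polymerase II and holds the catalytic centre and the repeated C-terminal domain that recruits capping, splicing and 3' end factors. RNA polymerase II transcribes all protein-coding genes of the nucleus, whereas RNA polymerases I and III, with other large subunits, transcribe most ribosomal and transfer RNA, and mitochondrial genes have a polymerase of their own. CPM is a share of each sample's reads, so a fall common to all nuclear transcripts would leave their CPM nearly in place and raise that of mitochondrially encoded transcripts. Those took 2.67% (replicate 2) to 3.84% of reads in SCR DMSO and 3.25% to 3.64% in siB DMSO. Whether a common fall took place was not tested.

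Each DMSO sample held between 17935840 and 42805294 reads counted to genes, so that 3 reads corresponded to between 0.0701 and 0.167 CPM. SCR DMSO replicate 2 was the deepest and stood apart from its group. On the first principal component, which held 71.9% of the variance of the 6 samples, it lay at 72.5 while the other 5 lay between -52.1 and 13.6. It was above or below all other 5 samples in 9507 of 13606 genes, and SCR DMSO replicate 1, at the other end of that component, was so in 7977. The remaining 4 samples were so in 1930 to 3546 genes. Among genes with a mean of at least 20 CPM, the genes where replicate 2 lay farthest from replicates 1 and 3 included WNT5B, TYMP and DRAP1 upward, and downward RGPD6, ITGB8, HMMR, MMP7 and SMC2. The median SD between replicates was 0.40 on the log2 scale in SCR DMSO, 0.22 in its replicates 1 and 3, and 0.15 in siB DMSO. The main results are therefore given with and without replicate 2. Defining proximal tubule markers were mostly near the floor, with LRP2, AQP1 and ANPEP below 1 CPM in all 6 samples, while PAX8 (370 to 418 CPM), GGT1 (111 to 184 CPM) and the epithelial keratin KRT8 (550 to 797 CPM) were abundant. The epithelial marker CDH1 was lower, from 2.87 to 25.2 CPM, and EPCAM ran from 97.4 to 234 CPM. Of the markers of other cell types, CD3E had no read, while the fibroblast marker LUM ran from 13.2 to 40.2 CPM and CD68 from 58.7 to 97.8 CPM.

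POLR2A itself measured 258, 288 and 306 CPM in the 3 SCR DMSO samples and 138, 143 and 139 CPM in the 3 siB DMSO samples. The groups did not overlap, and the siB mean was 49.2% of the SCR mean. The gene spans 7484366 to 7514616 on the plus strand of chromosome 17 (hg38, GENCODE 44). The change was -1.01 on the log2(CPM + 1) scale (SE 0.13, 95% interval -1.33 to -0.70, n = 3 and 3, limma adjusted p = 0.505), and a 2-sided exact permutation test gave p = 0.1, the smallest that 3 against 3 samples allow. Without SCR DMSO replicate 2 it was -1.0 (limma adjusted p = 0.137). When all 4 groups shared 1 estimate of the spread, the same difference had an adjusted p of 0.0238. In AAI, POLR2A fell by 1.61 (SE 0.15, limma adjusted p = 0.000582), and the test of the difference between the DMSO and AAI changes did not pass (0.59, limma adjusted p = 0.157).

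The other subunits of RNA polymerase II did not follow POLR2A. Of the 12 subunit genes all were tested, 8 were higher and 4 lower in siB (median 0.08), and 10 were bounded within 2-fold, a call that requires a pair of one-sided tests to place the change between -1 and 1 (log2) at an adjusted p under 0.05. Over all genes, 60.4% were higher and 74.2% were bounded. POLR2C, which encodes the assembly subunit RPB3, measured 63.5, 76.9 and 64.8 CPM in SCR and 88.9, 101 and 107 CPM in siB. It was the 1 subunit higher in siB at an unadjusted p under 0.05, by 0.52 (SE 0.15), without overlap between the groups, and it did not pass the adjusted test. Without SCR DMSO replicate 2, 4 of 12 subunits were higher at an unadjusted p under 0.05, against 11.5% of all genes, and their median was 0.23. Without SCR DMSO replicate 1 only 5 of 12 were higher at any p, against 9462 of 13606 of all genes, and their median was -0.06. Averaged over DMSO and AAI the change of POLR2C was 0.51 (SE 0.10, limma adjusted p = 0.0175). POLR2B, which forms the catalytic cleft together with RPB1, measured 171, 58.7 and 136 CPM in SCR and 166, 119 and 126 CPM in siB. Its 95% interval, -0.66 to 1.23, exceeded 2-fold, and the lowest of its 6 values was SCR DMSO replicate 2. POLR2D, which with POLR2G forms the detachable stalk, stayed between 60.7 and 65.8 CPM in all 6 samples.

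**Figure D1:**
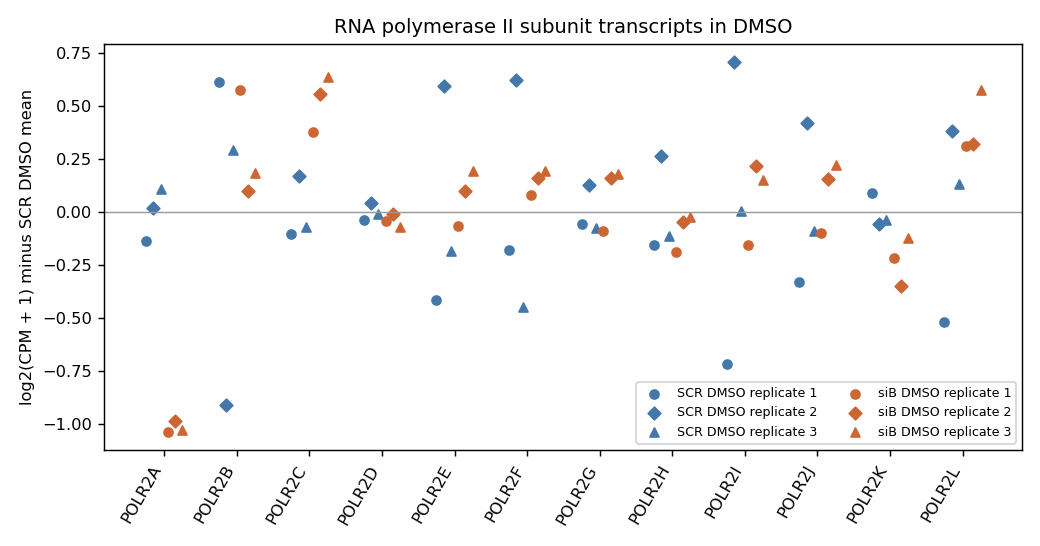
Level of the 12 RNA polymerase II subunit transcripts in the 6 DMSO samples, as log2(CPM + 1) minus the mean of the 3 SCR DMSO samples (points are samples, colours the siRNA, shapes the replicate number). Only POLR2A has its 3 siB points near -1, and SCR DMSO replicate 2 (blue diamonds) is the lowest point for POLR2B and the highest for POLR2E, POLR2F, POLR2H, POLR2I and POLR2J.

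Across all genes, no gene was called at an adjusted p under 0.05 with a change of at least 2-fold (0 of 13606, 0%), and the lowest adjusted p was 0.257. At an unadjusted limma p under 0.05, 479 genes were higher in siB (3.52% of those tested) and 165 lower (1.21%). With median-ratio size factors in place of CPM scaling, these counts were 266 and 186, so the excess of higher genes was smaller. At any p, 8223 genes were higher (60.4%), and 6296 without SCR DMSO replicate 2 (46.3%). Groups did not overlap for 1126 genes higher in siB (8.28%) and 495 lower (3.64%). Leaving out SCR DMSO replicate 2 raised the unadjusted counts to 1563 higher (11.5%) and 1191 lower (8.75%), and still no gene passed the adjusted test (0 of 13606, 0%, lowest adjusted p 0.0535, for PSAT1 and PGAM1). The fit over 4 groups called 8 genes raised (0.0588%) and 1 lowered (0.00735%), the last being POLR2A.

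Most of the transcriptome was bounded rather than changed. The change of 10097 genes was placed within 2-fold (74.2%), and of 11030 without SCR DMSO replicate 2 (81.1%), while 9249 genes had a 95% interval inside the same limits. None could be placed within 1.5-fold in these fits, although 6579 were with array weights, which give unlike samples less weight. The median half-width of the 95% interval was 0.59 on the log2 scale, so for a typical gene smaller differences were within its interval. The 10 genes with at least 100 CPM and the strongest bound were ILF2, FUCA2, PAX8, PITPNA, CYFIP1, SEC14L1, H2AFY, CYB5B, ANXA5 and MAVS. ILF2, a subunit of a nuclear RNA-binding complex, measured 243, 227 and 237 CPM in SCR and 234, 234 and 242 CPM in siB, with an interval of -0.28 to 0.29. ANXA5, a phospholipid-binding protein, measured 530, 597 and 554 CPM in SCR and 553, 569 and 583 CPM in siB. PAX8, a transcription factor of the renal lineage, measured 370, 388 and 418 CPM in SCR and 399, 378 and 393 CPM in siB. For each of them the siB values lay within or beside the SCR range.

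Housekeeping and mitochondrial groups had the largest bounded shares. Of 79 genes of cytosolic ribosomal proteins, 78 were bounded, as were all 13 mitochondrially encoded transcripts, 50 of 52 nuclear genes of the respiratory chain and 29 of 33 proteasome genes. The list of 20 reference genes had 18 bounded members. ACTB was not, with 4405, 8560 and 4985 CPM in SCR against 3819, 4457 and 4436 CPM in siB, its highest value being SCR DMSO replicate 2. TBP, the TATA-binding protein, was bounded at 23.5, 18.7 and 22.0 CPM in SCR and 26.5, 26.0 and 25.5 CPM in siB. Of 32 general transcription factors 28 were bounded, of 19 RNA polymerase I and III subunits 15, and of 22 genes of RPB1 assembly and turnover 17, the last pair of shares being near the 74.2% of all genes. No gene of RPB1 assembly and turnover was past an unadjusted p of 0.05 with all samples. Without SCR DMSO replicate 2, 3 were higher and 4 lower at that level, against 11.5% and 8.75% of all genes.

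The single genes that differed most are those with the lowest unadjusted p among genes of at least 5 CPM whose groups did not overlap, 10 in each direction where so many existed. PSAT1, a transaminase of serine synthesis on chromosome 9, measured 13.7, 16.4 and 14.6 CPM in SCR and 52.4, 49.9 and 54.0 CPM in siB. Its change was 1.74 (SE 0.16, 95% interval 1.35 to 2.13), with a limma adjusted p of 0.257 in the 6 samples and 0.00376 in the fit over 4 groups. Its range over all alternative fits was 1.69 to 1.81. Another gene of the same stress and amino acid list, ASNS, which makes asparagine, went the other way, with 39.3, 59.5 and 49.0 CPM in SCR and 30.1, 32.9 and 34.4 CPM in siB. In that list of 32 genes, 3 were higher and 2 lower at an unadjusted p under 0.05, against 3.52% and 1.21% of all genes. The median change of the list was 0.11.

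RASSF10, a RAS-association domain protein, measured 3.61, 4.46 and 4.67 CPM in SCR and 15.3, 13.9 and 14.4 CPM in siB, a change of 1.57 (SE 0.19, limma adjusted p = 0.415, and 0.0238 over 4 groups). CEBPA, a transcription factor of differentiation, measured 16.6, 17.2 and 12.9 CPM in SCR and 34.3, 42.5 and 38.0 CPM in siB, a change of 1.25 (SE 0.19, adjusted p = 0.679). By the rule that chose them, both were higher in all 3 siB samples than in any SCR sample. The other genes higher in siB by this rule were NPTXR, MICB, VASN, ACOT1, FAM222A, MAPRE1 and HTATIP2, with changes from 0.83 (HTATIP2) to 1.23 (FAM222A). MICB, a stress-induced ligand of the lymphocyte receptor NKG2D, measured 86.4, 114 and 113 CPM in SCR and 200.3, 229 and 235 CPM in siB. MAPRE1, a protein of growing microtubule ends, measured 152, 109 and 136 CPM in SCR and 280.2, 251 and 255 CPM in siB. ACOT1 has a near-identical neighbour, ACOT2, and its value is uncertain for that reason. NPTXR, MICB, FAM222A and NDRG1 were raised in the fit over 4 groups, at limma adjusted p between 0.0329 and 0.0498, which with PSAT1 and RASSF10 are 6 of its 8 raised genes.

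Lower in siB, beside POLR2A, were DNAJC19, ECI2, MBTPS1, ANKRD1, APIP, HN1L, LYN, SNRPD3 and PAPD7. DNAJC19, a co-chaperone of the mitochondrial inner membrane, measured 25.0, 25.1 and 22.4 CPM in SCR and 9.79, 11.3 and 12.8 CPM in siB, a change of -1.04 (SE 0.19, limma adjusted p = 0.754). APIP, an enzyme of methionine salvage, measured 11.1, 8.29 and 8.68 CPM in SCR and 4.36, 4.92 and 3.12 CPM in siB. ANKRD1, a target of YAP signalling, measured 131, 91.3 and 126 CPM in SCR and 68.7, 57.1 and 62.8 CPM in siB. The changes of the other 6 ran from -0.52 (SNRPD3) to -0.84 (LYN). Of these 20 genes in both directions, 12 overlap another annotated gene in GENCODE 44 and 1 has no position there, and whether reads were counted by strand is not given in the sources used here.

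**Figure D2:**
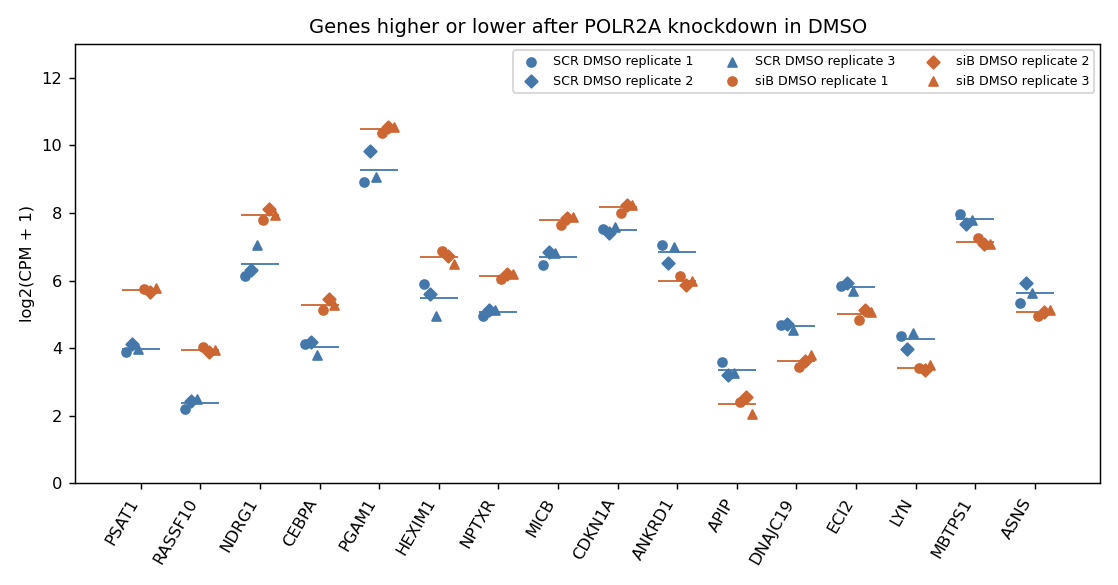
Level of 16 named genes, as log2(CPM + 1), in the 3 SCR DMSO (blue) and 3 siB DMSO (orange) samples, with shapes for the replicate number and lines for the group means. Only genes whose groups did not overlap are drawn, as was so for 8.28% of all genes higher in siB and 3.64% lower. The 3 siB values therefore lie above all SCR values from PSAT1 to CDKN1A and below them from ANKRD1 to ASNS. The 2 groups differ by 1.74 for PSAT1 and by -0.57 for ASNS.

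Of the genes measured in the study, CDKN1A, the p21 inhibitor of cyclin-dependent kinases, measured 182, 169 and 191 CPM in SCR and 257, 304 and 303 CPM in siB. Its change was 0.67 (SE 0.14, limma adjusted p = 0.935), and its groups did not overlap. KLF6, an injury-responsive transcription factor, measured 198, 158 and 192 CPM in SCR and 194, 162 and 146 CPM in siB and was bounded within 2-fold. CTGF, a profibrotic matricellular protein, measured 124, 208 and 191 CPM in SCR and 176, 187 and 175 CPM in siB and was bounded too. VIM, the mesenchymal intermediate filament, measured 1270, 2694 and 1313 CPM in SCR and 1125, 1266 and 1242 CPM in siB, so that SCR DMSO replicate 2 set its change, -0.45 with all samples and -0.09 without. IL6 measured 2.63, 20.6 and 16.8 CPM in SCR and 13.8, 16.2 and 17.1 CPM in siB, and its 95% interval reached from -1.0 to 2.14.

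Among 31 gene lists with at least 5 members tested, the list with the highest median was that of glycolysis and hypoxia genes. Of its 30 members tested, 28 were higher and 2 lower in siB, 9 were higher at an unadjusted p under 0.05 and none lower, and the median change was 0.42. Over all genes, 60.4% were higher at any p, 3.52% at an unadjusted p under 0.05, and the median was 0.06. Its mean log2(CPM + 1) was 6.74, 7.20 and 7.21 in the SCR samples and 7.47, 7.55 and 7.55 in the siB samples, so the groups did not overlap and SCR DMSO replicate 1 was the lowest. Without SCR DMSO replicate 2 the median was 0.50 with 17 members higher at an unadjusted p under 0.05 (11.5% of all genes). Without SCR DMSO replicate 1 it was 0.23 with 8 past that level, and 22 of 30 members were higher at any p. Of all genes, 9462 of 13606 were then higher, 678 of them past that level, and the median was 0.15.

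These 9 members were of several kinds, with transporters, regulators and enzymes among them. NDRG1, a stress- and hypoxia-responsive protein, measured 68.8, 79.0 and 132 CPM in SCR and 219, 277 and 247 CPM in siB, a change of 1.45 (SE 0.26, limma adjusted p = 0.754, and 0.0498 over 4 groups). SLC2A3, a glucose transporter, measured 31.9, 18.1 and 52.3 CPM in SCR and 90.1, 88.3 and 83.2 CPM in siB. PGAM1, the phosphoglycerate mutase, measured 480, 905 and 539 CPM in SCR and 1306, 1478 and 1498 CPM in siB, a change of 1.21 (SE 0.25). All 3 were higher in every siB sample than in any SCR sample. The lactate exporter SLC16A3 measured 174, 425 and 206 CPM in SCR and 396, 507 and 513 CPM in siB, where the high SCR value, replicate 2, overlapped the siB range. PFKFB3, which makes the activator of phosphofructokinase, ADM, EGLN3, CA12 and ALDOC were higher by 0.52 (ALDOC) to 1.06 (CA12). Several core enzymes had changes near 0. GAPDH measured 3714, 7203 and 5833 CPM in SCR and 4635, 5222 and 5502 CPM in siB, and its change of -0.08 was bounded within 2-fold, as were those of ENO1, HK1 and LDHA (-0.01 to 0.01).

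**Figure D3:**
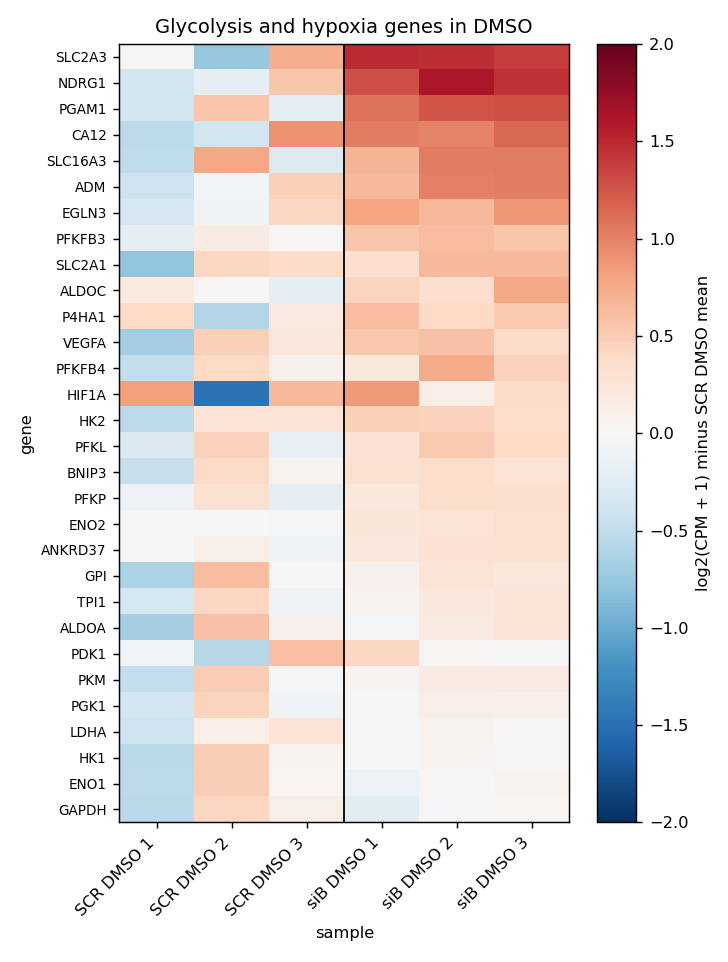
Heat map of the 30 tested glycolysis and hypoxia genes (rows, ordered by change) in the 6 DMSO samples (columns), coloured by log2(CPM + 1) minus the SCR DMSO mean. The top rows, from SLC2A3 to EGLN3, are red in all 3 siB columns, and the bottom rows, from HK1 to GAPDH, are near white there while SCR DMSO 1 is blue.

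Because 28 of 30 members were higher in siB, the promoters of the list were searched for ACGTG, the core of the hypoxia response element, on both strands in the 250 bases before each start in RefSeq. It was present in 18.5% of 35116 promoters of all genes and in 22.3% of 15442 promoters of the genes tested. Among the 48 promoters of 27 list members found, 39.6% held it. The list was assembled from hypoxia genes, so that share describes the choice of the list and not the knockdown. For 7 of the 9 members higher at an unadjusted p under 0.05 (all but NDRG1 and SLC2A3) there were 12 promoters, 3 of which held it, or 25.0%. Those 3 are shown on build GRCh38.p14, 5' to 3' on the strand of the gene, trimmed to bases outside annotated exons, with ACGTG and its reverse complement in capitals. A palindromic CACGTG counts as an overlapping pair of matches. PFKFB3 lies at chr10:6202694-6202865 (plus strand), SLC16A3 at chr17:82228792-82229041 (plus strand) and ALDOC at chr17:28576949-28577145 (minus strand).
PFKFB3: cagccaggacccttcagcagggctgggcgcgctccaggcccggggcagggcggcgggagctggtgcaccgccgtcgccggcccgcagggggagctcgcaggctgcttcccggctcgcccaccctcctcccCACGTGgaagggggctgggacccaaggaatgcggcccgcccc
SLC16A3: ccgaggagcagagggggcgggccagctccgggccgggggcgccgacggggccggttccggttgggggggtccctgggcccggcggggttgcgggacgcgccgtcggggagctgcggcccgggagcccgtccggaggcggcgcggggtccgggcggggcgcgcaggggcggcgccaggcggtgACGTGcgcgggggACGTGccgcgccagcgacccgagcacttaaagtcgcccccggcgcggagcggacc
ALDOC: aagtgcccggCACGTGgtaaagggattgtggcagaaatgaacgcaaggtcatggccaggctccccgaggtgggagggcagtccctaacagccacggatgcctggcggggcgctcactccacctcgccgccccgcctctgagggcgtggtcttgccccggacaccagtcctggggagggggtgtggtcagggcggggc
Each printed stretch holds 2 matches. A match is a description of the letters and says nothing about binding, and the 25.0% among the members that differed compares with 22.3% of 15442 promoters of the genes tested.

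The next lists by median were smaller in change. Of 35 immediate early and short-lived transcripts, 24 were higher and 11 lower, while 60.4% of all genes were higher. At an unadjusted p under 0.05, 5 were higher and 1 lower, against 3.52% and 1.21% of all genes. Their median was 0.22. DUSP6, a phosphatase that switches off ERK signalling, measured 20.2, 22.0 and 77.9 CPM in SCR and 115, 116 and 119 CPM in siB, and ID2, an inhibitor of helix-loop-helix factors, measured 5.50, 6.85 and 10.9 CPM in SCR and 18.1, 21.4 and 21.9 CPM in siB. ZFP36L1, which promotes decay of AU-rich transcripts, was the member lower in siB, by -0.42. The list mean was 4.92, 5.44 and 5.30 in SCR and 5.45, 5.61 and 5.55 in siB, so SCR DMSO replicate 2 all but reached the lowest siB sample. Its median ran from 0.12 to 0.39 when 1 sample at a time was left out. The low end was without SCR DMSO replicate 1, where 20 of 35 members and 9462 of 13606 of all genes were higher. The median of all genes was then 0.15.

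Of 30 p53 targets, 21 were higher and 9 lower, while 60.4% of all genes were higher. At an unadjusted p under 0.05, 5 were higher and none lower, against 3.52% and 1.21% of all genes. Their median was 0.20 and ran from 0.15 to 0.27 with 1 sample left out. Beside CDKN1A, TNFRSF10B, a death receptor for TRAIL, measured 134, 124 and 116 CPM in SCR and 214, 220.5 and 203 CPM in siB (change 0.76, SE 0.13). PMAIP1, the BH3-only protein NOXA, measured 60.5, 39.1 and 52.1 CPM in SCR and 86.7, 69.7 and 77.8 CPM in siB, and FAS and TP53I3 were higher by 0.90 and 0.56. CCNG1 went lower, from 102, 28.2 and 71.1 CPM to 48.7, 36.7 and 39.1 CPM, with overlapping groups. The list mean, 5.14, 4.88 and 4.88 in SCR against 5.22, 5.15 and 5.16 in siB, left SCR DMSO replicate 1 just below the siB samples.

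NRF2 targets, genes of the antioxidant response, were higher in 23 of 25 members, against 60.4% of all genes. Their median was 0.19, and 1 member, GCLC, was past an unadjusted p of 0.05. Without SCR DMSO replicate 2, 19 were higher, against 46.3% of all genes. Without SCR DMSO replicate 1, 16 were higher with a median of 0.11, beside 9462 of 13606 and 0.15 for all genes. The mean of the NRF2 list was 6.11, 6.31 and 6.58 in SCR and 6.57, 6.53 and 6.57 in siB, so the groups overlapped. Of 33 proteasome genes 31 were higher, against 60.4% of all genes, but none at an unadjusted p under 0.05, and the median was 0.17. Without SCR DMSO replicate 1, 20 of 33 were higher with a median of 0.0280, beside 9462 of 13606 and 0.15 for all genes. The mean of the proteasome list was 6.85, 7.0 and 7.11 in SCR and 7.14, 7.17 and 7.2 in siB, a narrow gap between groups that did not overlap.

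Within the machinery of transcription, the elongation and pause release list of 32 genes held 1 member higher and 1 lower at an unadjusted p under 0.05, near the shares of all genes, and neither passed the adjusted test. HEXIM1, which holds the kinase P-TEFb inactive in the 7SK particle, measured 58.3, 47.5 and 30.2 CPM in SCR and 116, 104 and 89.2 CPM in siB, a change of 1.21 (SE 0.26, limma adjusted p = 0.935). ELL2, a subunit of the super elongation complex, measured 15.5, 13.9 and 9.97 CPM in SCR and 8.12, 5.28 and 4.57 CPM in siB, a change of -1.03 (SE 0.28). Both kept their direction without SCR DMSO replicate 2, at 1.27 and -0.98. The list as a whole had a median of 0.07. Without that sample the median was -0.12, with 5 members higher and 5 lower at an unadjusted p under 0.05. The shares of all genes were then 11.5% and 8.75%. Among general transcription factors only ERCC3, the translocase of TFIIH, was past an unadjusted p of 0.05, higher by 0.40.

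Other lists moved with the choice of SCR samples. Without SCR DMSO replicate 2, 10 of the 31 medians changed sign, those of epithelial junction and keratin genes, elongation factors, 3' end and Integrator factors and proximal tubule genes among them. With size factors 6 changed sign, all from medians within 0.05 of 0. Mitosis genes had a median of -0.09 with all samples, -0.33 without SCR DMSO replicate 2 and 0.11 without SCR DMSO replicate 1, and the count at an unadjusted p under 0.05 and lower went from 3 to 16 of 37 without replicate 2, as that of all genes went from 1.21% to 8.75%. KIF20A, a kinesin of cytokinesis, was lower on both counts, with 133, 120 and 122 CPM in SCR and 94.3, 90.2 and 90.9 CPM in siB. CENPF, a kinetochore protein, measured 329, 41.8 and 206 CPM in SCR and 197, 40.0 and 75.9 CPM in siB, with samples of both groups at each end. SR proteins and splicing regulators went from -0.09 to -0.25, the RNA interference machinery from -0.05 to -0.25 and epithelial junction and keratin genes from 0.01 to -0.25. Their medians without SCR DMSO replicate 1 were 0.11, 0.13 and 0.27.

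Ribosomal protein genes were lower in 79 of 79 members with all samples, against 5383 of 13606 of all genes, with a median of -0.19. At an unadjusted p under 0.05, 2 were lower, RPL34 and RPL21, against 1.21% of all genes. The sum of the ribosomal protein genes took 7.12% of reads in SCR DMSO replicate 2 and 4.40% to 4.89% in the other 5. Without that sample 38 were higher and 41 lower, with a median of -0.02. Many of these genes have processed pseudogenes, so single members are uncertain.

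**Figure D4:**
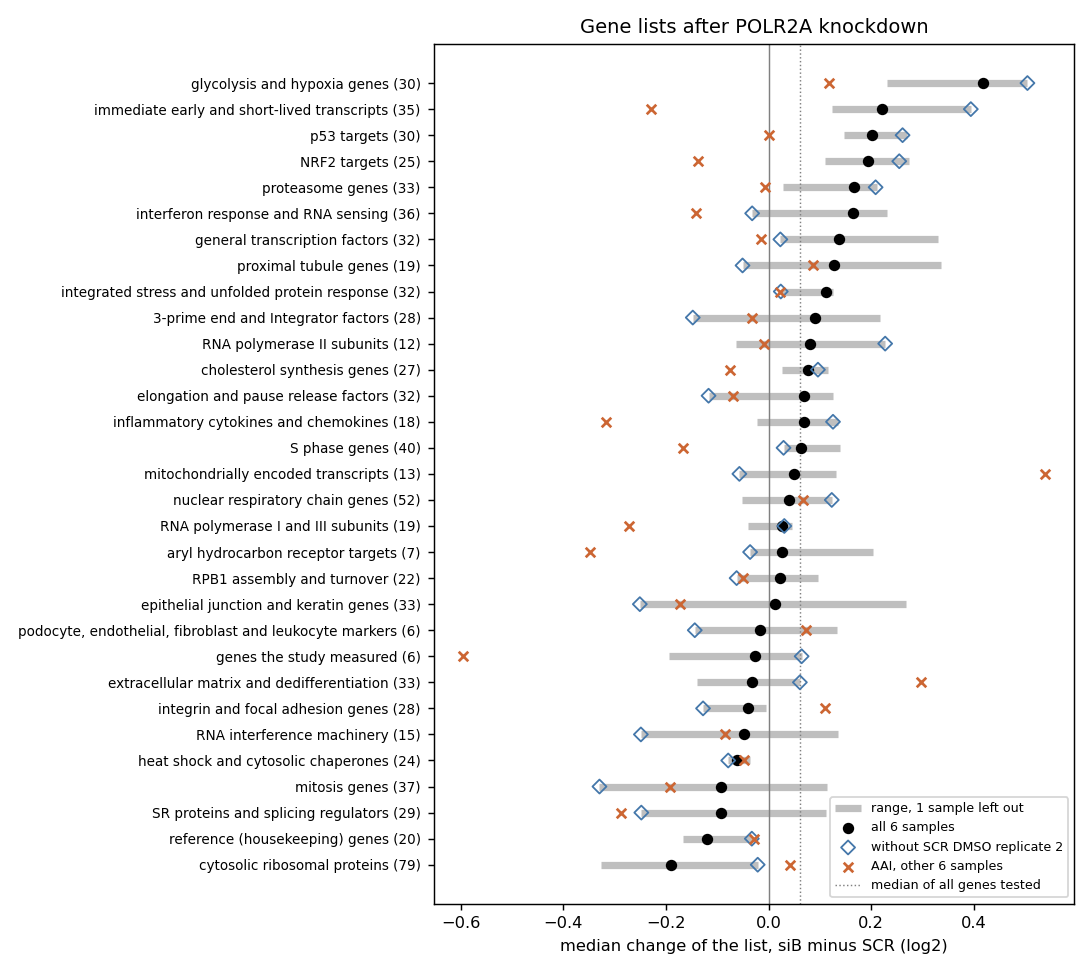
Median change (siB minus SCR, log2) of 31 gene lists, with the number of members tested, in the 6 DMSO samples (black), without SCR DMSO replicate 2 (blue diamonds) and in the 6 AAI samples (crosses), with grey bars for the range when 1 DMSO sample at a time is left out and a dotted line at the median of all genes, 0.06. The glycolysis and hypoxia list lies farthest to the right at 0.42 with a bar from 0.23 to 0.50, and the bars of the mitosis and SR protein lists cross 0.

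Changes also varied with gene span, in a direction that depended on which SCR samples were used. Genes were placed by span in GENCODE 44 (hg38) into 6222 under 30 kb, 4400 of 30 to 100 kb and 2616 over 100 kb. With all samples the median change was 0.08, 0.07 and 0.02 in these classes. Without SCR DMSO replicate 2 it was 0.10, -0.11 and -0.25, and without SCR DMSO replicate 1 it was 0.09, 0.20 and 0.22. The mean level of long genes was 5.0, 4.01 and 4.71 in SCR and 4.81, 4.48 and 4.49 in siB, while that of short genes stayed between 4.59 and 4.75 in all 6. SCR DMSO replicates 1 and 2 were thus the ends of the range for long genes, with the siB samples between them. In AAI the same classes had medians of -0.11, -0.02 and 0.11. Their order was opposite to the DMSO values without replicate 2 and the same as those without replicate 1. The part of RNA quality in these values was not tested.

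**Figure D5:**
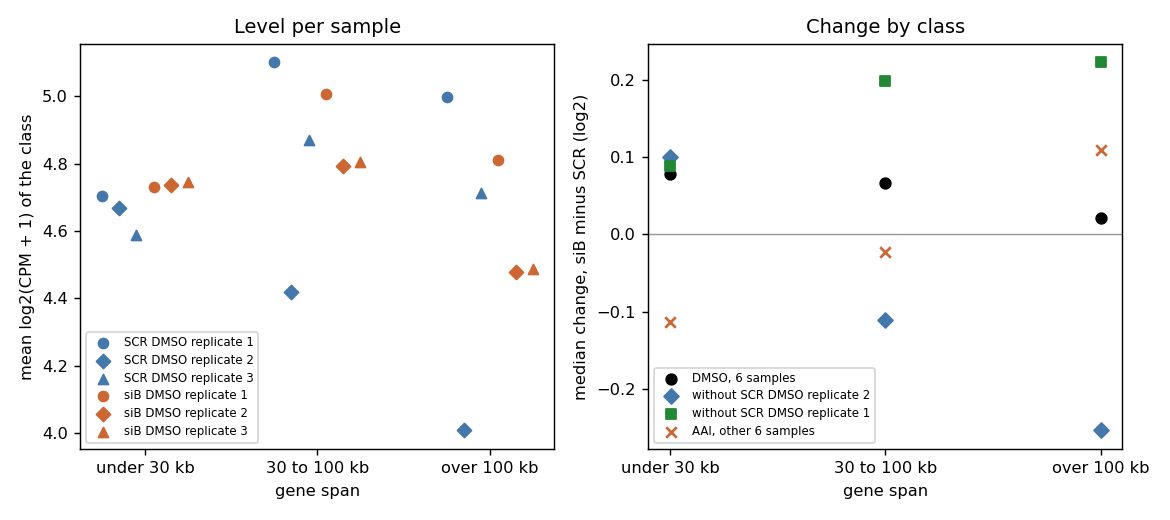
Left, mean log2(CPM + 1) of 3 gene span classes in each DMSO sample (colours for siRNA, shapes for replicate number). Right, median change (siB minus SCR, log2) of each class with all DMSO samples, without SCR DMSO replicate 2, without SCR DMSO replicate 1 and in AAI. Long genes run from 4.01 in SCR DMSO replicate 2 to 5.0 in SCR DMSO replicate 1, and their median change is 0.02, -0.25, 0.22 and 0.11 in the 4 settings.

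The same siRNA contrast was then read in the 6 AAI samples, none of which enters the DMSO comparison. Deviations from the group mean correlated between same-numbered SCR DMSO and SCR AAI samples at 0.42, 0.47 and 0.34. For siB the values were 0.21, 0.03 and 0.19. Whether the 2 sets share batches was not tested. Of 13349 genes tested in both, 46.2% were higher and 53.8% lower in siB under AAI, and 9.09% and 13.4% were so at an unadjusted p under 0.05. Of the 471 genes higher in DMSO at an unadjusted p under 0.05, 325 (69.0%) were also higher in AAI and 128 (27.2%) at an unadjusted p under 0.05, with 43 past it in the opposite direction. Of the 160 lower in DMSO, 121 (75.6%) were also lower in AAI and 60 (37.5%) at an unadjusted p under 0.05, with 9 in the opposite direction. All 4 shares exceeded those of all genes. Across the 13349 genes the Pearson correlation of both changes was 0.18, a description over genes that share each sample's depth and composition.

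The larger set of genes that differed when SCR DMSO replicate 2 was left out carried over less. Of 1545 genes higher, 725 (46.9%) were also higher in AAI, close to the 46.2% of all genes, and 171 (11.1%) at an unadjusted p under 0.05, fewer than the 219 past it in the opposite direction. Of 1163 lower, 709 (61.0%) were also lower, and 220 (18.9%) at an unadjusted p under 0.05, with 89 in the opposite direction. The correlation over genes was 0.01. Without SCR DMSO replicate 1 instead, 480 of 669 genes higher (71.7%) and 128 of 168 lower (76.2%) kept their direction in AAI, and the correlation was 0.23.

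Averaged over DMSO and AAI with all 12 samples in the fit, siB raised 31 of 15325 genes (0.202%) and lowered 7 (0.0457%) by at least 2-fold at an adjusted p under 0.05, and 583 (3.8%) passed without the fold limit. Of the 31 raised genes, 16 were too low in DMSO to be tested there, so this fit speaks for both conditions only for the rest. PSAT1 rose by 1.42 (SE 0.12, limma adjusted p = 0.000468). FAM222A, which measured 3.28, 4.49 and 4.82 CPM in SCR DMSO and 10.7, 11.7 and 10.8 CPM in siB DMSO, rose by 1.40 (SE 0.13, limma adjusted p = 0.000924). VASN, a membrane protein that traps TGF-beta, measured 45.6, 51.5 and 46.8 CPM in SCR DMSO and 84.8, 109 and 103 CPM in siB DMSO and rose by 1.16. NDRG1 rose by 1.15, ACOT1 by 1.03 and PGAM1 by 1.0, and HAP1 and TNFRSF10D, a decoy receptor for TRAIL, by 1.38 and 1.05. MYH15 and GRAMD2 were called in this fit through AAI, since both lay under 2 CPM in every DMSO sample.

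POLR2A fell by 1.31 (SE 0.09, limma adjusted p = 0.00012). ANKRD1 fell by 1.18 (SE 0.17, limma adjusted p = 0.00424). LIN28A, an RNA-binding protein that blocks let-7 maturation, measured 17.1, 8.27 and 11.7 CPM in SCR DMSO and 6.58, 6.90 and 7.53 CPM in siB DMSO and fell by 1.07. RNF144B, PRKCE and S1PR1, a receptor for sphingosine 1-phosphate, fell by 1.12, 1.13 and 1.13. In DMSO alone PRKCE, a protein kinase C, measured 88.5, 32.3 and 74.6 CPM in SCR and 35.5, 31.7 and 28.9 CPM in siB, so its groups overlapped through SCR DMSO replicate 2.

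Not every gene went the same way in AAI. RASSF10 measured 5.30, 5.62 and 4.82 CPM in SCR AAI and 2.08, 3.83 and 3.59 CPM in siB AAI, the reverse of its direction in DMSO, and CEBPA likewise measured 43.6, 41.4 and 23.3 CPM against 23.4, 18.0 and 20.7 CPM. The difference between the DMSO and AAI changes was 2.18 for RASSF10 (limma adjusted p = 0.00428) and 1.98 for CEBPA (limma adjusted p = 0.0134). CDKN1A measured 299, 305 and 263 CPM in SCR AAI and 304, 260 and 299 CPM in siB AAI, a change of -0.01, and the difference from its change in DMSO did not pass the test (0.67, limma adjusted p = 0.112). In AAI, 46.2% of all genes tested in both conditions were higher and 53.8% lower, with a median of -0.03. Among the lists, glycolysis and hypoxia genes had a median of 0.12 in AAI with 21 of 30 higher. The median was 0.00 for p53 targets, -0.14 for NRF2 targets and -0.23 for immediate early transcripts, with 26 of 35 of the last lower. All 13 mitochondrially encoded transcripts were higher in AAI, with a median of 0.54, against 0.05 in DMSO. No test was made of the difference between the conditions for a list.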

How the data were processed

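HK-2 polyA RNA was sequenced as paired-end reads. As their methods state, the authors aligned reads to hg38, counted them per gene with a UCSC annotation and used limma on BioJupies. The deposited table holds log10(CPM + 1), in log10 units, for 35238 genes, 28 of which carry names that a spreadsheet turned into dates. The aligner and strand setting are not given in the sources used here. Groups and replicates were taken from sample titles, since the treatment field read DMSO for every sample. CPM and whole reads were recovered from the deposited values (whole multiples of 1 read within 0.05 reads). The limit of 3 reads covers counting error only, while the 95% intervals are limma's and come from the spread between samples.

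Log2(CPM + 1) was fitted with limma 3.58.1 (R 4.3.3; trend, 2-sided, Benjamini-Hochberg adjustment over all genes tested), separately for the 6 DMSO and 6 AAI samples and for all 12 together. Fold changes on this scale understate those of low genes. The bound used a pair of one-sided tests against 2-fold from the same fit. The code was tested on simulated data. Gene spans came from GENCODE 44, and 1178 symbols were matched through older names. The 32 gene lists and the members named were chosen with earlier results of these data known, and lists were described by counts and medians without a test. Genes named were POLR2A, the genes the study measured, list members with the largest changes or called in any fit, the 10 lowest unadjusted p each way in DMSO (at least 5 CPM, groups apart), calls of the 4-group and averaged fits, the 10 strongest bounds (at least 100 CPM) and up to 5 genes each way where SCR DMSO replicate 2 lay farthest from its group (at least 20 CPM). Other named members were chosen after their values were seen. Alternatives covered the pseudocount, filter, scaling, weights, voom on recovered reads, the replicate block and each sample left out. Those for list medians and span classes other than without SCR DMSO replicate 2, and the choice of DMSO genes without SCR DMSO replicate 1, were added after seeing the data. Some genes that the rule names are not reported here.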

Additional observations from a re-analysis of the deposited data

Results flagged for a closer look

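The knockdown change differed between DMSO and AAI, by the interaction term of the fit over 12 samples at a limma adjusted p under 0.05, for 10 of the genes named or listed here. Over all genes of that fit, 247 of 15325 passed that level, and the lists held 902 genes. The count of 10 is therefore not read as a trait of the genes named. The siB minus SCR change was more positive in DMSO for RASSF10 (difference 2.18 on the log2 scale), CEBPA (1.98), RRM2, the small subunit of ribonucleotide reductase (1.40), and CLDN2, a claudin of leaky epithelia (1.22). It was more positive in AAI for GRAMD2 (-2.42), MYH15 (-2.11), the sodium-chloride cotransporter SLC12A3 (-1.81), the efflux pump ABCC2 (-1.67), the brush border peptidase ANPEP (-1.62) and PECAM1 (-1.30). The last 6 were below 2 CPM in every DMSO sample. Groups of 3 samples were too small for the test of single outlying samples.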

How the results depend on the processing

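No gene was called in DMSO under any setting except array weights (86 raised, 56 lowered, an estimate that stopped before its tolerance) and all 4 groups in the fit (8 and 1). POLR2A had -1.09 (adjusted p 0.00216) and -1.01 (0.0238) in these, and -0.96 to -1.09 over all. Bounded genes were 21301 with no filter and 0 at 1.5-fold (13153 with no filter and 6579 with array weights), and 6971 to 11030 with 1 sample left out. The averaged fit gave 99 and 11 genes at a pseudocount of 0.1, 11 raised at a mean of at least 5 CPM, 28 lowered with array weights, 443 and 140 with no fold limit, and 19 to 56 and 4 to 18 with 1 sample left out (56 without SCR AAI replicate 1, 19 without siB AAI replicate 1, 18 without SCR DMSO replicate 2, 4 without siB DMSO replicate 3). The counts sharing a sign with AAI became 725 and 709 without SCR DMSO replicate 2. Short genes had 0.0301 with size factors and 0.0387 to 0.10 with 1 sample left out. IL6 ran from -0.24 (without SCR DMSO replicate 1) to 1.05 (without SCR DMSO replicate 2) in DMSO, and its average, -0.08, from -0.67 to 0.36 with 1 sample left out and 0.50 with array weights. CTGF turned to -0.0240 in DMSO and 0.0118 averaged with array weights, and ran from -0.15 (without SCR DMSO replicate 1) to 0.22 (without SCR DMSO replicate 2) in DMSO. The cause was not tested. Same-numbered SCR and siB samples correlated in their deviations at 0.73, 0.59 and -0.19 in DMSO, so the numbers were not taken as pairs there, and at 0.61, 0.32 and 0.29 in AAI, where a block added after seeing the data put 182 of the 471 genes higher in DMSO (38.6%, against 15.6% of all genes) and 78 of the 160 lower (48.8%, against 21.0%) past an unadjusted p of 0.05 in the same direction. With the replicate block 0 genes were called in DMSO and 12370 were bounded, and in the averaged fit 35 were raised and 7 lowered, with 939 against 583 past an adjusted p of 0.05. The sign of 10 list medians without SCR DMSO replicate 2, and the median 95% half-width of 0.59, limit what these samples show.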

Other observations

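Some genes of other lists differed without being part of a group. POLR3G, a subunit of RNA polymerase III, measured 1.90, 1.31 and 1.66 CPM in SCR DMSO and 4.70, 4.19 and 3.12 CPM in siB DMSO. PLAU, the urokinase plasminogen activator, measured 233, 263 and 310 CPM in SCR and 423, 446 and 443 CPM in siB. Of the 33 genes tested of its list, extracellular matrix and dedifferentiation, 1 was higher and 4 lower at an unadjusted p under 0.05. The shares of all genes were 3.52% and 1.21%. Among the 4 lower members, SPARC measured 925, 937 and 582 CPM in SCR and 516, 532 and 540 CPM in siB. ATP5F1, a stator subunit of ATP synthase, measured 86.4, 69.8 and 82.6 CPM in SCR and 125, 134 and 134 CPM in siB, beside 50 of 52 bounded genes of its list. MIOX, the inositol oxygenase of proximal tubule, measured 18.7, 18.2 and 24.5 CPM in SCR and 30.4, 33.2 and 31.7 CPM in siB. None passed the adjusted limma test in DMSO.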
